A study of Canis lupus familiaris with 8 samples.

Results

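DLK1 and 9 other genes that are imprinted in mammals were followed through 8 messenger RNA libraries from the dog. The genes were DLK1, IGF2, CDKN1C, GRB10, PEG3, PLAGL1, MEST, NNAT, PEG10 and SNRPN, and they were looked up by symbol in deposited tables of 24580 genes. A row was found for 8 of the 10. CDKN1C and SNRPN had no row under their symbol and were not analysed here. DLK1 was selected on its FPKM in the pituitary, which was lower in the stressed library of both breeds, so the pituitary stress values below are a description and carry no test.

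The libraries came from the pituitary and the adrenal cortex of adult Beagles and adult Chinese Field Dogs. In each breed and tissue, 1 library carried the label of chronic stress exposure and 1 the label non-disposal, taken here to mean unexposed. That gave 8 groups of 1 library and no replicates. Whether a library stands for a single dog or for pooled dogs, and whether the same dogs gave both tissues, was not stated, and the extraction note named spleen. The nature and length of the stress were not given in the sources used here.

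An imprinted gene is read mainly from the copy inherited from 1 parent, and the choice is kept by DNA methylation set in the egg or the sperm. Imprinted genes often act on growth: some, such as IGF2, promote it, and others, such as GRB10 and CDKN1C, hold it back. DLK1, a transmembrane protein related to the Notch ligands that can also be shed from the cell, is best known for holding back fat cell formation and for its expression in hormone-producing cells of the pituitary and adrenal gland. These data give the summed RNA of both parental copies, so they say nothing of which copy was read.

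The tissue labels were checked against marker genes. Hormone genes of the anterior pituitary summed to between 81870 and 165500 FPKM (a level in fragments per kilobase of gene, scaled to library depth) in the pituitaries and to between 31.2 and 53.6 in the adrenal libraries. GH1, the growth hormone gene, was listed at 0 in the unexposed Beagle pituitary, so the lowest of those sums lacks it. Marker genes of the adrenal cortex summed to between 17660 and 22150 FPKM in the adrenal libraries and to between 47.0 and 76.5 in the pituitaries. Of these markers, MC2R and MRAP were at 0 in all 4 pituitaries. Recovered reads ranged from 14327357 to 18712034 per library. The stressed Chinese Field Dog pituitary stood apart: its 8 forebrain neuron markers summed to 847.6 FPKM, against 6.61 to 9.16 in the other pituitaries, where NEUROD6 and TBR1 were at 0. Its 7 glial markers summed to 554.8 FPKM, against 34.5 to 113.4.

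DLK1 (ENSCAFG00000017925, CanFam3.1 chromosome 8, 68961743 to 68970408) was present in all 4 pituitaries. Its level was 19.4 FPKM in the unexposed Beagle pituitary and 7.14 FPKM in the stressed one. It was 15.99 FPKM in the unexposed Chinese Field Dog pituitary and 3.74 FPKM in the stressed one. Both stressed libraries lay below both unexposed ones. In the adrenal cortex DLK1 was near the limit of detection, with 6 reads in Beagle without stress and 1 with it, and 4 reads in Chinese Field Dog without stress and 0 with it. In that last library the count of 0 allows up to 3 reads, or 0.115 FPKM.

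**Figure D1:**
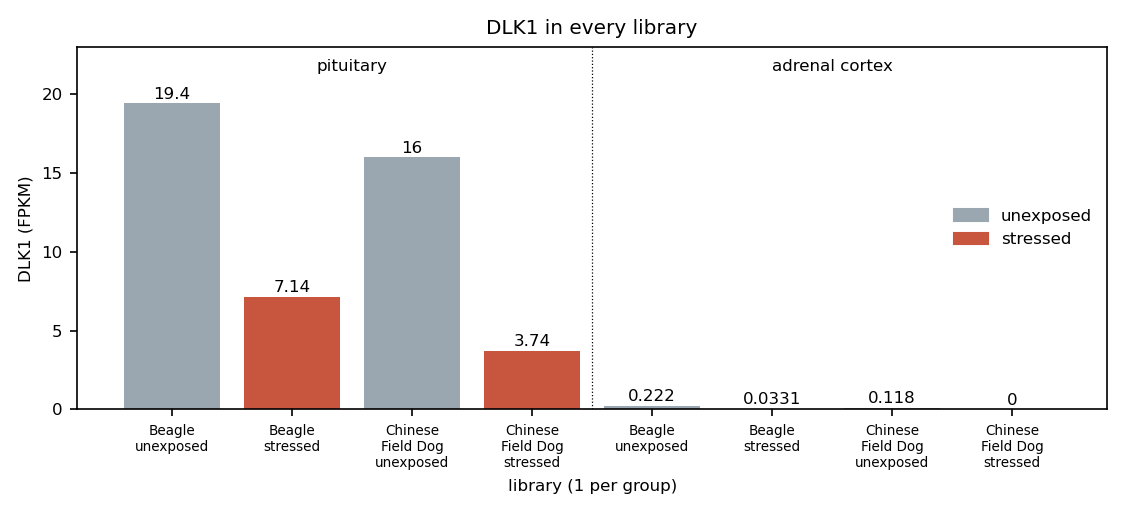
Bars give the level of DLK1 in FPKM in each of the 8 libraries, 1 per group, grey for unexposed and red for stressed. The 4 pituitaries lie between 3.74 and 19.4 FPKM with both stressed libraries lowest, and the 4 adrenal cortex libraries lie at or below 0.222 FPKM.

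In the Beagle pituitary the stressed library held 235 DLK1 reads and the unexposed one 618. The log2 ratio of FPKM + 1 was -1.33, a 2.72-fold lower FPKM. The 95% Clopper-Pearson interval of the log2 read ratio, after scaling between libraries, ran from -1.67 to -1.23. Like all such intervals here it covers counting error only. From the lowest ratio up, DLK1 ranked 104 of 14366 genes with a mean of at least 1 FPKM in that pair. In the Chinese Field Dog pituitary the reads numbered 112 and 523, the log2 ratio was -1.84, a 4.28-fold lower FPKM, and the interval ran from -2.40 to -1.80. There DLK1 ranked 83 of 14720.

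The pituitary is a mixture of cells, and in such bulk samples fewer cells of a type cannot be told apart from less RNA per cell. The 7 anterior pituitary hormone genes had a median log2 stress ratio of 0.14 in Beagle and -0.59 in Chinese Field Dog. Taken relative to that median, the log2 ratio of DLK1 was -1.47 in Beagle and -1.26 in Chinese Field Dog. The markers of the pituitary cell lineages summed to 608.7 FPKM in the unexposed and 526.8 in the stressed Beagle pituitary, and to 556.8 and 398.3 in the Chinese Field Dog. Of the 9 lineage markers that passed the filter, 7 were lower in the stressed Beagle library and 8 in the stressed Chinese Field Dog library, with median log2 ratios of -0.10 and -0.63. The part of these markers, and of the neuron and glial markers of the stressed Chinese Field Dog library, in the DLK1 values was not tested.

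The other imprinted genes were then set beside DLK1 in the same pituitary pairs. Of the 8 genes, DLK1 alone was at least 2-fold lower in the stressed library of both breeds, which was true of 13 of 14722 genes (0.0883%). On the log2(FPKM + 1) scale 1 of the 8 passed 2-fold in either direction in the Beagle pair, against 2.35% of all genes. In the Chinese Field Dog pair 1 of 8 did, against 9.54%, and IGF2 passed it there only without the added constant. By any amount, 6 of 8 were lower in the stressed Beagle pituitary (50.5% of all genes) and 5 of 8 in the stressed Chinese Field Dog pituitary (53.4%). Lower in both were DLK1, GRB10 and MEST, a pattern that 26.6% of all genes shared. The median log2 ratio of the 8 was -0.23 in Beagle and -0.39 in Chinese Field Dog, against -0.003 and -0.03 for all genes tested. Since this contrast chose DLK1, nothing is read from these counts.

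**Figure D2:**
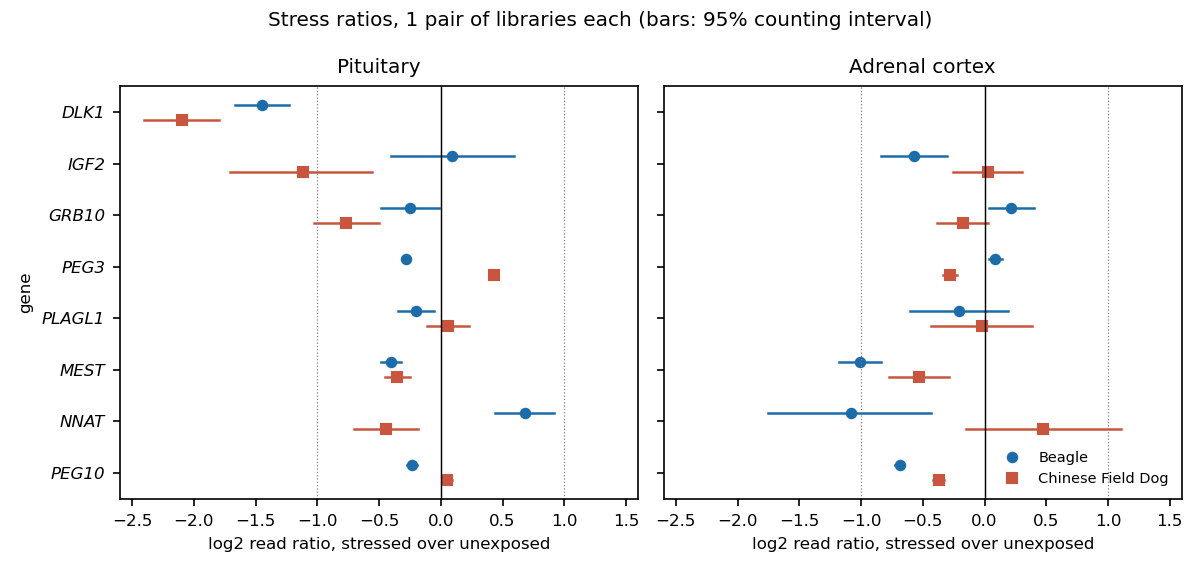
Points give the log2 ratio of scaled counts (reads times 1 factor per library), stressed over unexposed, for each gene. The pituitary is on the left and the adrenal cortex on the right, with circles for Beagle and squares for Chinese Field Dog. Bars are 95% counting intervals, dotted lines mark 2-fold, and DLK1 is drawn in the pituitary alone because it did not pass the filter in the adrenal cortex; its 2 pituitary intervals lie wholly below -1.

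IGF2, the fetal growth factor, did not share the DLK1 pattern in both breeds. IGF2 (ENSCAFG00000010090, CanFam3.1 chromosome 18, 46293984 to 46304805) had a pituitary level of 4.83 FPKM in the unexposed and 5.13 in the stressed Beagle, and of 6.24 in the unexposed and 2.87 in the stressed Chinese Field Dog. The Beagle log2 ratio was 0.07 with an interval from -0.41 to 0.59, which includes no difference. The Chinese Field Dog log2 ratio was -0.90, with 38 reads against 90 and an interval from -1.70 to -0.56. Without the added constant the Chinese Field Dog FPKM was 2.175-fold lower and so passed 2-fold. As a share of each library's reads, also with no constant added, the log2 ratio was -1.25. Relative to the hormone genes the Chinese Field Dog log2 ratio of FPKM + 1 was -0.32.

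GRB10, an adaptor that binds the insulin and insulin-like growth factor receptors and dampens their signal, was lower in both stressed pituitaries, by less than 2-fold. GRB10 (ENSCAFG00000003422, chromosome 18, 1896482 to 2014836) was at 11.7 FPKM in the unexposed and 9.90 in the stressed Beagle pituitary, and at 12.4 and 7.30 in the Chinese Field Dog. The log2 ratio was -0.22 in Beagle, with an interval from -0.49 to -0.01. In Chinese Field Dog it was -0.69, with an interval from -1.03 to -0.50, and -0.11 relative to the hormone genes.

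MEST, a hydrolase-fold protein read from the paternal copy and linked to growth of the fetus and of fat tissue, was among the most abundant of the set in the pituitary. MEST (ENSCAFG00000001450) was at 149 FPKM in the unexposed and 113 in the stressed Beagle pituitary, and at 103 and 80.4 in the Chinese Field Dog. The log2 ratio was -0.39 in Beagle (interval -0.49 to -0.32) and -0.35 in Chinese Field Dog (interval -0.45 to -0.25). MEST was thus lower in both stressed pituitaries, but relative to the hormone genes the Chinese Field Dog value turned to 0.24. Its deposited interval on chromosome 14, 6340991 to 6449135, was the same as that of COPG2, and how reads were divided between overlapping genes was not given in the sources used here.

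PEG3, a zinc finger protein of the paternal copy, went in opposite directions in the 2 breeds. PEG3 (ENSCAFG00000029153, chromosome 1, 101108257 to 101123680) was at 111 FPKM in the unexposed and 91.4 in the stressed Beagle pituitary, and at 99.0 and 133 in the Chinese Field Dog. The log2 ratio was -0.28 (interval -0.32 to -0.25) in Beagle and 0.43 (interval 0.40 to 0.46) in Chinese Field Dog. Relative to the hormone genes, whose median there was -0.59, the latter was larger still and passed 2-fold. In the stressed Chinese Field Dog pituitary the neuron markers summed to 847.6 FPKM, and their part in the PEG3 values was not tested. NNAT, or neuronatin, a small membrane protein of neurons and endocrine cells, went the other way from PEG3 in each breed. NNAT (ENSCAFG00000008786, chromosome 24, 26118990 to 26120649) was at 39.9 and 64.8 FPKM in the unexposed and stressed Beagle pituitary, and at 49.4 and 36.3 in the Chinese Field Dog. Its log2 ratio was 0.69 (interval 0.44 to 0.92) in Beagle and -0.44 (interval -0.70 to -0.18) in Chinese Field Dog, the latter turning to 0.15 relative to the hormone genes. The 3 posterior lobe markers, OXT, AVP and RAX, summed to 44.2 and 113.2 FPKM in the unexposed and stressed Beagle pituitary and to 99.9 and 34.0 in the Chinese Field Dog, and their part in the NNAT values was not tested. With 1 library per group, the difference between the breeds' ratios in the pituitary has no replicate and was not tested.

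PLAGL1 and PEG10 had stress ratios in the pituitary of at most 0.23 in size, on the log2(FPKM + 1) scale, in either breed. PLAGL1 (ENSCAFG00000000318, chromosome 1, 35418399 to 35425360), a zinc finger factor that slows cell division, was at 19.5 and 16.9 FPKM in the unexposed and stressed Beagle pituitary and at 13.8 and 14.3 in the Chinese Field Dog. Its log2 ratios were -0.19 and 0.05. PEG10 (ENSCAFG00000032379, chromosome 14, 20121413 to 20133980), a gene derived from a retrotransposon and needed in the placenta, was at 82.3 and 70.0 FPKM in Beagle and at 89.6 and 92.6 in Chinese Field Dog. Its log2 ratios were -0.23 and 0.05. In the Chinese Field Dog both genes turned slightly negative as shares of library reads, at -0.08 and -0.09, where the median of all genes lay at -0.17. Relative to the hormone genes, whose median there was -0.59, both Chinese Field Dog ratios were more positive, though below 2-fold.

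**Figure D3:**
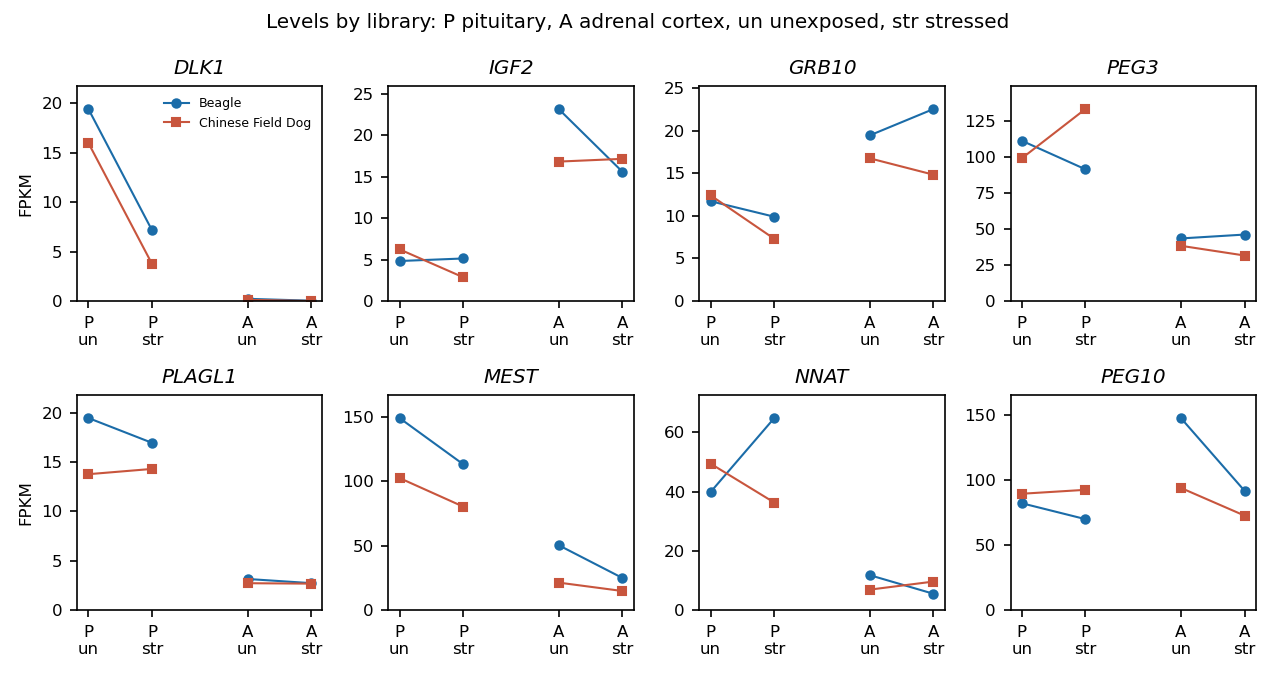
Each panel gives the level of 1 gene in FPKM in the 8 libraries, with lines joining the unexposed and the stressed library of the same breed and tissue (blue circles Beagle, red squares Chinese Field Dog). The tissues separate in every panel but that of PEG10, where the pituitaries span 70.0 to 92.6 FPKM and the adrenal libraries 72.8 to 148.

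The adrenal cortex stress contrast had no part in the choice of genes and was tested, with the 2 breeds as replicates. Its limma fit took 1 estimate of the spread from the stress ratios of both tissues. The p-values therefore rest in part on the pituitary pairs, among them the pair that holds the library with neuron markers, and are not independent of them. By limma, 0 of the 7 genes that passed the filter were called at an adjusted p under 0.05, as were 3 of 13759 genes overall (0.0218%). MEST and PEG10 had an unadjusted p under 0.05, edgeR called 0 of the 7 and DESeq2 0 of the 7. By pair, on the log2(FPKM + 1) scale, 0 of 7 passed 2-fold in Beagle (3.28% of all genes) and 0 of 7 in Chinese Field Dog (2.02%). In Beagle MEST and NNAT lay just short of it on that scale, and without the added constant their FPKM were 2.02-fold and 2.15-fold lower. By any amount 5 of 7 were lower with stress in Beagle (49.7% of all genes) and 5 of 7 in Chinese Field Dog (48.3%), and PLAGL1, MEST and PEG10 were lower in both, as were 24.8% of all genes.

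MEST had the largest adrenal stress difference of the 7. Its level was 50.4 FPKM in the unexposed and 24.9 in the stressed Beagle adrenal cortex, and 21.3 and 14.8 in the Chinese Field Dog. The log2 ratios were -0.99 (interval -1.18 to -0.84) and -0.50 (interval -0.77 to -0.29). Their mean was -0.74 ± 0.17 (limma SE), with a limma adjusted p of 1. That SE draws on the spread in both tissues and over all genes, and is not the SE of these 2 ratios alone. MEST and DLK1 were the genes of the set that were lower in the stressed library of all 4 pairs, as were 1001 of 14808 genes (6.76%). The pituitary pairs chose DLK1, so its place here is a description. Its adrenal values rest on 11 reads in all and did not pass the filter there. MEST turned in 1 pair relative to the hormone genes. PEG10 was at 148 and 91.9 FPKM in the unexposed and stressed Beagle adrenal cortex and at 94.1 and 72.8 in the Chinese Field Dog. Its log2 ratios were -0.68 and -0.37, with a mean of -0.52 ± 0.16 (limma SE) and a limma adjusted p of 1.

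The remaining genes had no common adrenal direction. NNAT was at 11.8 and 5.49 FPKM in the Beagle adrenal cortex, on 59 and 31 reads, and at 6.89 and 9.61 in the Chinese Field Dog, on 44 and 47 reads. Its log2 ratios were -0.98 and 0.43, and the interval of the latter, -0.15 to 1.10, included no difference. IGF2 was at 23.2 and 15.6 FPKM in the Beagle adrenal cortex (log2 ratio -0.54) and at 16.8 and 17.2 in the Chinese Field Dog (0.03, and -0.15 as a share of library reads). GRB10 was at 19.5 and 22.5 FPKM in Beagle and at 16.8 and 14.8 in Chinese Field Dog, with log2 ratios of 0.20 and -0.17. PEG3 was at 43.4 and 46.1 FPKM and at 38.3 and 31.6, with log2 ratios of 0.09 and -0.27. PLAGL1 lay between 2.67 and 3.15 FPKM in the 4 adrenal libraries. Beside these values, the 12 markers of the adrenal medulla, the inner tissue that makes adrenaline, summed to 5908 and 4915 FPKM in the unexposed and stressed Beagle adrenal cortex and to 3672 and 3331 in the Chinese Field Dog. In each breed 10 of the 12 were lower in the stressed library. The 3 fat cell markers summed to 35.0 and 5.65 FPKM in Beagle and to 13.6 and 21.1 in Chinese Field Dog. Their part in the adrenal values was not tested.

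The tissues differed more than the exposures. With the 4 combinations of breed and exposure as replicates, 7 of the 8 imprinted genes were called by limma, 5 higher and 2 lower in the pituitary. The share of all genes called was 58.7% (28.4% higher and 30.2% lower), so most genes of either tissue were called as well. The 7 genes also had no overlap between the 4 pituitaries and the 4 adrenal libraries, as had 58.0% of all genes. The median log2 difference of the 8 was 1.75, against -0.001 for all genes tested. DLK1 is counted in these figures, but its tissue call is a description only, for reasons given below.

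DLK1 had the largest tissue difference. Its pituitary level was 11.6 ± 7.35 FPKM and its adrenal level 0.0931 ± 0.099 FPKM (SD, n = 4 each), and 1488 reads were recovered in the pituitaries against 11 in the adrenal libraries. The log2 difference was 3.30 ± 0.34 (SE), with a limma adjusted p of 0.00149. DLK1 passed the filter of that fit only through its pituitary level, and its pituitary values chose it. Its tissue call is therefore a description and not an independent test. In the stressed Chinese Field Dog, whose adrenal library held 0 reads, the pituitary level was at least 32.4-fold higher than the level that 3 reads would give.

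Another 4 genes were higher in the pituitary in all 4 pairs. NNAT was at 47.6 ± 12.8 FPKM in the pituitary and 8.44 ± 2.80 in the adrenal cortex (SD, n = 4 each), a log2 difference of 2.38 ± 0.32 (SE) with a limma adjusted p of 0.003. PLAGL1 was at 16.1 ± 2.63 and 2.82 ± 0.222 FPKM, and its difference of 2.16 ± 0.094 (SE) had the smallest error of the set. MEST was at 111 ± 28.7 and 27.9 ± 15.6 FPKM, a log2 difference of 2.07 ± 0.16 (SE). PEG3 was at 109 ± 18.3 and 39.9 ± 6.40 FPKM, a log2 difference of 1.43 ± 0.19 (SE). The limma adjusted p-values of the last 3 genes were 0.000176, 0.000638 and 0.00306.

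IGF2 and GRB10, which act on the same growth factor pathway in opposite directions, were both higher in the adrenal cortex. IGF2 was at 18.2 ± 3.39 FPKM there and 4.77 ± 1.40 in the pituitary (SD, n = 4 each), a log2 difference of -1.76 ± 0.19 (SE), pituitary minus adrenal, with a limma adjusted p of 0.00173. GRB10 was at 18.4 ± 3.35 and 10.3 ± 2.28 FPKM, a log2 difference of -0.78 ± 0.14 (SE) with a limma adjusted p of 0.00769. PEG10 was at 102 ± 32.3 FPKM in the adrenal cortex and 83.6 ± 10.1 in the pituitary, and the tissues overlapped. Its log2 difference was -0.24 ± 0.21 (SE), with a limma adjusted p of 0.368.

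**Figure D4:**
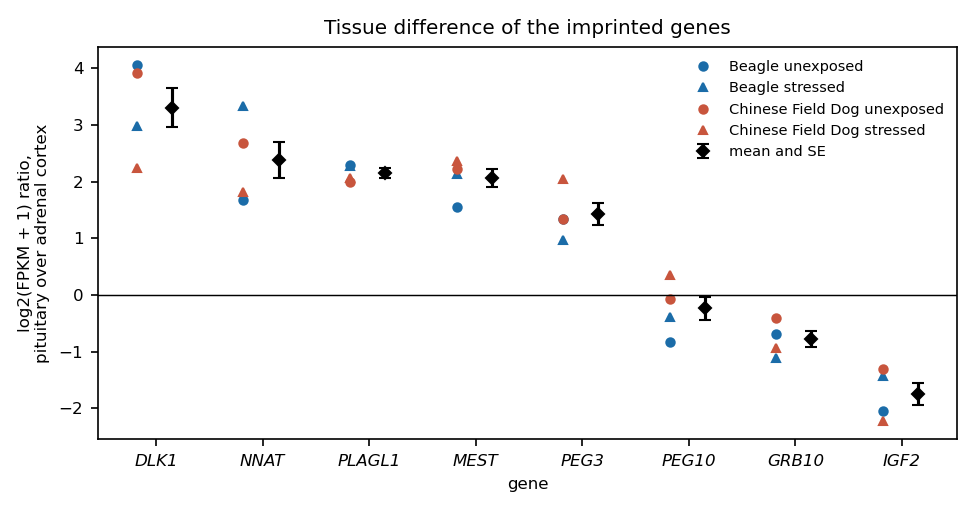
The log2 ratio of FPKM + 1, pituitary over adrenal cortex, is given for each gene in the 4 combinations of breed and exposure (coloured symbols). Black symbols give the mean and its limma SE. DLK1 is highest at 3.30 and IGF2 lowest at -1.76, and PEG10 is the gene whose 4 ratios fall on both sides of 0.

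The breeds were compared with the 2 exposures as replicates, and in the limma fit both tissues again shared 1 estimate of the spread. By limma 0 of 8 genes were called in the pituitary, against 4 of 14722 genes overall (0.0272%), and 0 of 7 in the adrenal cortex, against 10 of 13759 (0.0727%). In each tissue 2 of them had an unadjusted p under 0.05. EdgeR called 0 in either tissue, and DESeq2 called 0 in the pituitary and 1, MEST, in the adrenal cortex. The Chinese Field Dog and Beagle libraries did not overlap for PLAGL1, MEST and PEG10 in the pituitary (39.0% of all genes), and for GRB10, PEG3, PLAGL1 and MEST in the adrenal cortex (42.8%).

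MEST was lower in both Chinese Field Dog libraries of each tissue. In the adrenal cortex the breed difference was -0.96 ± 0.17 (log2, limma SE), with a limma adjusted p of 0.476 and a DESeq2 adjusted p of 0.0104. Beside it, 12 of the 12 adrenal medulla markers were lower in the Chinese Field Dog adrenal cortex within each exposure, with a median breed difference of -0.76 (log2) against -0.02 for all genes, and their part in the breed values of that tissue was not tested. In the pituitary the breed difference of MEST was -0.51 ± 0.17 with a limma adjusted p of 0.576. DLK1 was lower in the Chinese Field Dog pituitary within each exposure, by -0.52 ± 0.18 on average (limma adjusted p 0.578). Its log2 ratio was -0.27 between the unexposed and -0.78 between the stressed pituitaries, and these pituitary values chose DLK1. The stressed pair includes the library with neuron markers at 847.6 FPKM, and their part in the pituitary breed values was not tested. PEG10 was lower in the Chinese Field Dog adrenal cortex (-0.49 ± 0.16, limma adjusted p 0.65) and showed a difference of 0.26 ± 0.16 in the pituitary. A test of whether the breed difference itself differed between tissues gave PEG10 a value of 0.75 ± 0.23 and a limma adjusted p of 0.829, and 0 of the 8 genes were called there. PEG10 alone of the 8 had an unadjusted p under 0.05 in that test, and 5 of 14808 genes were called.

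Genes at the same chromosome sites were looked at next, since imprinted genes lie in clusters. BEGAIN, the neighbour of DLK1, had a pituitary level of 14.6 FPKM in the unexposed and 10.9 in the stressed Beagle, and of 12.1 and 10.9 in the Chinese Field Dog, with log2 ratios of -0.39 and -0.14. WDR25, beyond it, had log2 ratios of -0.16 and 0.05. A row deposited as cfa-mir-432 lies on the other side of DLK1, at 69102643 to 69106687, a span far longer than a microRNA. Its pituitary level was 4.91 and 4.84 FPKM in Beagle and 5.82 and 4.56 in Chinese Field Dog, so its log2 ratios were -0.02 and -0.30. None of these 3 neighbours was 2-fold lower in either stressed pituitary. In the adrenal cortex BEGAIN was at 7.25 and 5.52 FPKM in the unexposed and stressed Beagle, and at 5.08 and 2.06 in the Chinese Field Dog. Its log2 ratios there were -0.34 and -0.99, so BEGAIN was lower with stress in all 4 pairs, as were 6.76% of all genes. The adrenal log2 ratios of WDR25 were -0.005 and 0.22. In the adrenal cortex the cfa-mir-432 row, like DLK1, was almost absent, at 0.0709 FPKM or less. Of 82 rows of small nucleolar and micro RNAs in the same cluster, 80 were at 0 in all libraries, and the MEG3 rows held 8 reads in all. The MEG3 rows cover short stretches, 69053176 to 69053260 and 69056426 to 69056531, and the libraries were of messenger RNA. These counts therefore do not show whether MEG3 or the small RNAs were expressed. The symbol DIO3 was used for 2 rows, so DIO3 was left out of the counts.

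A list of 35 other imprinted genes had 25 matched by a symbol used once, of which 20 passed the filter. In the tissue comparison 8 of the 20 were called higher and 4 lower in the pituitary by limma, against 28.4% and 30.2% of all genes, so the share called was close to that over all genes. The median log2 difference was 0.48, against -0.001 for all genes tested. The largest differences were those of KCNQ1, a potassium channel subunit, at 5.12 ± 0.809 FPKM in the pituitary and 47.5 ± 6.86 in the adrenal cortex (SD, n = 4 each), and of ATP10A, a lipid flippase, at 6.86 ± 0.565 and 40.7 ± 5.87. DDC, which makes dopamine, was also higher in the adrenal cortex, with a log2 difference of -2.15 ± 0.35 (SE), as was DCN, the matrix protein decorin, with -1.83 ± 0.25. MAGEL2, a regulator of protein sorting, was higher in the pituitary, at 6.73 ± 2.32 FPKM against 1.31 ± 0.342. ASB4, among the 20, passed the filter only through its pituitary level, so its tissue result is a description.

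With stress, 0 of the 20 passed 2-fold in the Beagle pituitary (2.35% of all genes) and 3 in the Chinese Field Dog pituitary (9.54%). INPP5F, a lipid phosphatase, was at 21.2 FPKM in the unexposed and 85.5 in the stressed Chinese Field Dog pituitary, and NAP1L5 was at 14.8 and 32.9. In the Beagle pituitary the same genes stood at 30.7 and 26.9 FPKM and at 19.7 and 13.0. The third was DDC, at 4.90 and 1.85 FPKM in the Chinese Field Dog and 1.81 and 2.98 in the Beagle. By any amount, 8 of the 20 were higher and 12 lower in each stressed pituitary. The stressed Chinese Field Dog library is the one with the neuron markers at 847.6 FPKM, and the part of these markers in the values was not tested. In the stressed Beagle adrenal cortex NAP1L5 (8.21 against 19.2 FPKM) and DDC (13.0 against 29.6) were more than 2-fold lower. In that pair 10 of the 12 adrenal medulla markers were lower too, and their part in these values was not tested. None of the other imprinted genes passed 2-fold in the same direction in both breeds, in either tissue.

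**Figure D5:**
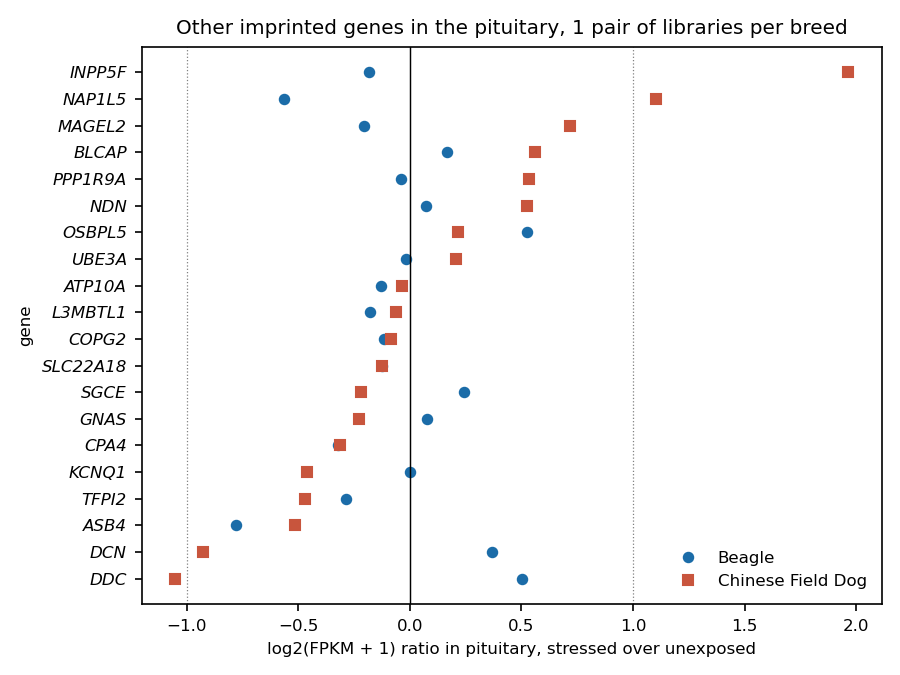
The log2 ratio of FPKM + 1, stressed over unexposed pituitary, is given for the 20 other imprinted genes that passed the filter, with circles for Beagle and squares for Chinese Field Dog and dotted lines at 2-fold. INPP5F (1.97) and NAP1L5 (1.10) lie above 2-fold and DDC (-1.05) below it in the Chinese Field Dog, and none lies beyond it in the Beagle.

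DLK1 resembles the ligands of Notch receptors but lacks the domain by which they activate them, and it is known as an inhibitor of that pathway. Of 28 Notch pathway genes matched, 26 were tested between tissues, and 12 were called higher and 7 lower in the pituitary by limma, against 28.4% and 30.2% of all genes. The transcription factors HES6 (32.5 ± 6.58 against 1.65 ± 0.177 FPKM, SD, n = 4 each), HEY2 (41.3 ± 9.32 against 2.66 ± 1.24) and HEY1 (19.1 ± 0.999 against 2.98 ± 1.01), the coactivator MAML2 and the ligand JAG2 were higher in the pituitary. With stress, 0 of 26 passed 2-fold in the Beagle pituitary (2.35% of all genes) and 1 of 27 in the Chinese Field Dog pituitary (9.54%). The median log2 ratio of the list was 0.06 in the former and -0.21 in the latter, against -0.003 and -0.03 for all genes. DLK2, the closest relative of DLK1, was at 2.34 FPKM in the unexposed and 2.30 in the stressed Beagle pituitary, and at 2.07 and 4.86 in the Chinese Field Dog. That last library is the one with the neuron markers at 847.6 FPKM, and their part in the DLK2 and other Notch values was not tested. Unlike DLK1, DLK2 was present in the adrenal cortex, at 3.71 to 4.99 FPKM.

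IGF2 signals through IGF1R and INSR, and its supply is set by binding proteins. Of the 16 genes of that pathway tested between tissues, 9 were called higher and 6 lower in the pituitary by limma, against 28.4% and 30.2% of all genes. IRS4, an adaptor of the receptors, was at 33.2 ± 8.20 FPKM in the pituitary and at 0.0189 FPKM or less in the adrenal cortex. The binding proteins split: IGFBP2 was higher in the pituitary (47.8 ± 24.8 against 7.02 ± 2.30 FPKM), and IGFBP7 (151 ± 6.78 against 1751 ± 235) and IGFBP4 (20.5 ± 6.35 against 226 ± 14.9) were higher in the adrenal cortex. STC2, which blocks the cutting of binding proteins, was at 9.48 ± 5.80 FPKM in the pituitary and 0.092 ± 0.0578 in the adrenal cortex. IRS4, STC2 and PAPPA2 passed the filter of the tissue fit only through their pituitary level, and IGFBP3 only through its adrenal level. Tissue calls of these genes are therefore a description. In the pituitary 2 of 16 genes, STC2 and IRS2, were at least 2-fold lower with stress in Beagle (1.09% of all genes), and IRS2 was named after its values were seen. In Chinese Field Dog 1 of 16 was (1.7% of all genes), IGFBP2, at 13.5 against 70.1 FPKM. In the same stressed library the neuron markers summed to 847.6 FPKM, and the posterior lobe markers to 34.0 against 99.9 in the unexposed one. The part of these markers in the IGFBP2 value was not tested.

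GRB10 has 2 close relatives among adaptor proteins, and they differed between tissues in opposite directions. GRB7 was at 6.70 ± 1.82 FPKM in the pituitary and 0.112 ± 0.0629 in the adrenal cortex (SD, n = 4 each), and GRB14 was at 4.82 ± 2.55 and 26.6 ± 4.60. GRB7 passed the filter only through its pituitary level, so its tissue difference is a description. CDKN1C belongs to the inhibitors of cyclin-dependent kinases, which stop the cell cycle. Of 12 such inhibitors and their partners, 3 were called higher and 5 lower in the pituitary by limma, against 28.4% and 30.2% of all genes. The inhibitors CDKN2A (1.30 ± 0.511 against 17.4 ± 4.70 FPKM) and CDKN2B (1.44 ± 0.809 against 9.09 ± 4.76), the cyclin CCND3 and the kinase CDK6 were lower there, and the cyclin CCND1 was higher. Across all 5 pathway lists, 0 of 78 genes in the pituitary and 0 of 72 in the adrenal cortex passed 2-fold in the same direction in both breeds. Over all genes, 0.0883% were lower and 0.245% higher in this way in the pituitary, and 0.174% and 0.116% in the adrenal cortex, so counts of 0 in lists of this size say little.

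The genes whose levels most resembled those of DLK1 over the 8 libraries were not imprinted genes of either list. By the root mean square difference between centred log2(FPKM + 1) profiles, the nearest of 12528 genes included TMC4 (0.37), RAB25 (0.37), KCNH6 (0.37) and ABCA13 (0.40). TMC4, for example, was at 20.1 and 14.3 FPKM in the unexposed and stressed Beagle pituitary, at 15.8 and 8.05 in the Chinese Field Dog, and at 0.419 FPKM or less in the adrenal cortex. Among the set itself PLAGL1 was nearest to DLK1, at rank 385 of 12528, followed by NNAT at 406 and MEST at 462, and IGF2 was farthest at 11812. With 4 libraries of each tissue, this measure weighs the tissue difference heavily, and it includes the pituitary values that chose DLK1.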

How the data were processed

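The deposited tables gave, per gene and library, FPKM values and scaled counts; the authors' aligner was TopHat and their build CanFam3.1, per the submitters' processing notes. The counting program, its use of strand and the annotation were not given in the sources used here. The authors' FPKM are counts corrected for length and depth. The deposited scaled counts hold, as a signal, each gene's reads multiplied by 1 factor per library. Reads were recovered by dividing by that factor (98.7% to 99.1% of values were whole within 0.02). In 2 stressed libraries (Beagle adrenal cortex, Chinese Field Dog pituitary) the factor was close to 1, and recovered reads are approximate. Of 24580 genes, 16080 had a symbol used once. Depth was 14327357 to 18712034 reads per library.

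Ratios are of log2(FPKM + 1), for genes whose mean reached 1 FPKM in the libraries compared; the constant understates differences of low genes. limma 3.58.1 (R 4.3.3) was fitted across all such genes to 4 within-pair ratios (3 residual degrees of freedom for tissue, 2 for the fits with 1 coefficient per tissue), with Benjamini-Hochberg adjustment and a threshold of 0.05. Each SE given with a log2 difference is that of the limma fit. It is moderated over all genes and, outside the tissue fit, pooled over both tissues. Nothing states that libraries are separate animals, so p-values cover only the spread among these libraries, which may be technical. edgeR 4.0.16 and DESeq2 1.42.0 on recovered reads, another pseudocount, 2 other filters, recentring and left-out pairs were the alternatives. The scripts were tested on simulated data. The breed-by-tissue test and the ratios relative to marker genes were added after values were seen. The genes and all lists were chosen with earlier results of these data known. From each pathway list the text names up to 5 genes called between tissues, by size of log2, with a few others named after their values were seen: all those passing 2-fold in 1 pair that the text gives, and BEGAIN, WDR25, cfa-mir-432 and DLK2. The genes nearest to DLK1 were the 5 with the lowest difference in profile, of which 1 is not reported here.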

Additional observations from a re-analysis of the deposited data

How the results depend on the processing

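No paired analysis was possible because each group held 1 library, so the groups share fewer than 2 replicate numbers and no replicate block could be added; the ratios tested pair libraries by breed, tissue and exposure only. The 7 tissue calls among the imprinted genes held in all 10 alternatives, and PEG10 was called in none of them. The call of DLK1, counted among the 7, is a description and not an independent test. The count over all genes ran from 6462 to 9411 around 8686. The few calls of the other contrasts were unstable, and the cause was not tested. For breed in the adrenal cortex, 10 genes were called by limma, 1 without a filter, 3 with at least 50 reads, 103 by DESeq2 and 0 by edgeR (with 1108 genes at unadjusted p under 0.05), and 37 to 40 when a pair was left out and the lone pair was assumed to vary like the other tissue. For breed in the pituitary, 4 became 0 with at least 50 reads (1418 at an unadjusted p under 0.05), 214 by DESeq2 and 47 to 67 with a pair left out. For stress in the adrenal cortex, 3 became 0 without a filter, with at least 50 reads and by edgeR (with 1217, 510 and 499 genes at unadjusted p under 0.05), 12 by DESeq2 and 30 to 40 with a pair left out. Of the 30 stress ratios of single pairs, 2 passed 2-fold, against 5 with a pseudocount of 0.1, 5 as shares of library reads and 4 relative to marker genes.

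Directions of uncalled genes turned with the pair left out, and each range gives the log2 difference of either pair alone. For breed in the adrenal cortex it was -0.439 to 0.129 for IGF2 and -0.695 to 0.71 for NNAT. For breed in the pituitary it was -0.393 to 0.076 for GRB10, -0.82 to 0.304 for NNAT, -0.665 to 0.313 for IGF2 and -0.167 to 0.538 for PEG3, with the stressed pair alone giving the value at the lower end for all but PEG3. For stress in the adrenal cortex it was -0.165 to 0.203 for GRB10, -0.977 to 0.428 for NNAT, -0.542 to 0.027 for IGF2 and -0.271 to 0.085 for PEG3. Genes with few reads, such as NNAT and DLK1 in the adrenal cortex, are limited by depth as well.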
